A study of Danio rerio with 32 samples.

Results

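The genes described here are 5 peroxiredoxin and thioredoxin genes of the zebrafish, chosen by Ensembl identifier from the 32519 genes counted. They are a pair of genes named for peroxiredoxin 1, prdx1 (ENSDARG00000058734) and PRDX1 (ENSDARG00000025350), a pair of thioredoxin genes, txnb (ENSDARG00000044125) and TXN (ENSDARG00000031435), and the thioredoxin reductase gene TXNRD3 (ENSDARG00000100374). The letter case follows the symbol table, and prdx1 and PRDX1 are different genes. In the RefSeq list of another assembly, which gives no Ensembl identifiers, prdx1 is also a synonym of prdx2, so whether ENSDARG00000025350 is a peroxiredoxin 1 or a peroxiredoxin 2 gene could not be settled. PRDX1 below stands for that identifier, and the pair is one of names. All 5 were among the 11384 genes with enough counts to be tested, and the lowest count of any of them in any library was 19 reads. RNA came from livers of zebrafish larvae that were nrf2KO (KO) or wild type (WT), given acetaminophen (APAP) or dimethyl sulfoxide (DMSO) and taken at 12 h or 24 h. The 8 groups were therefore KO APAP, KO DMSO, WT APAP and WT DMSO at each time, with 4 libraries per group and 20 pooled livers per library. The mutated Nrf2 copy, the APAP dose and the larval age were not given in the sources used here. Nothing in the labels says that replicates came from separate clutches or exposures, so p-values measure only the spread between these pools.

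Peroxiredoxins remove hydrogen peroxide and organic peroxides with a reactive cysteine, which is oxidised in the process. Thioredoxin is the small protein that returns the oxidised peroxiredoxin to its working form, and thioredoxin reductase recharges thioredoxin with electrons from NADPH. In the liver a reactive metabolite of APAP uses up glutathione and leads to oxidative stress in hepatocytes. Nrf2 is a transcription factor that is released from its inhibitor Keap1 under such stress, and in mammals its targets include Prdx1, Txn1 and Txnrd1. The series set APAP against DMSO in both genotypes to ask how acute liver injury alters liver RNA with and without nrf2.

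Total counts per library were between 3971569 and 6298523, and libraries detected between 4129 and 14683 genes. KO APAP 12 h replicate 2 detected 4129 genes, WT DMSO 12 h replicate 2 detected 8815 and KO DMSO 12 h replicate 3 detected 9703, the 3 lowest values. The 12 hepatocyte markers on the list, fabp10a among them, all had counts and took 5.73% to 11.7% of a library, whereas the 3 neutrophil genes matched took at most 0.00265%. Exocrine pancreas markers took 0.976% to 9.59%. In WT APAP 24 h replicate 2 the pancreas markers (9.59%) took more than the hepatocyte markers (5.87%). Group means of NFE2L2 (ENSDARG00000042824), the table's name for the gene of a zebrafish Nrf2, were 30.6 to 41.98 CPM in KO groups and 38.7 to 54.2 CPM in WT groups. Those of nfe2l2b (ENSDARG00000089697), the other copy, were 2.89 to 5.57 CPM in KO groups and 1.61 to 5.02 CPM in WT groups. Reads of both were still counted in KO groups, and since the lesion is not stated these levels do not check the labels. Levels are CPM, the counts of a gene as a share of the scaled library total, and fold changes are given on the log2 scale ± standard error (SE). A gene counts as called where edgeR's quasi-likelihood test gave an adjusted p (Benjamini-Hochberg, over all tested genes) under 0.05.

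**Figure D1:**
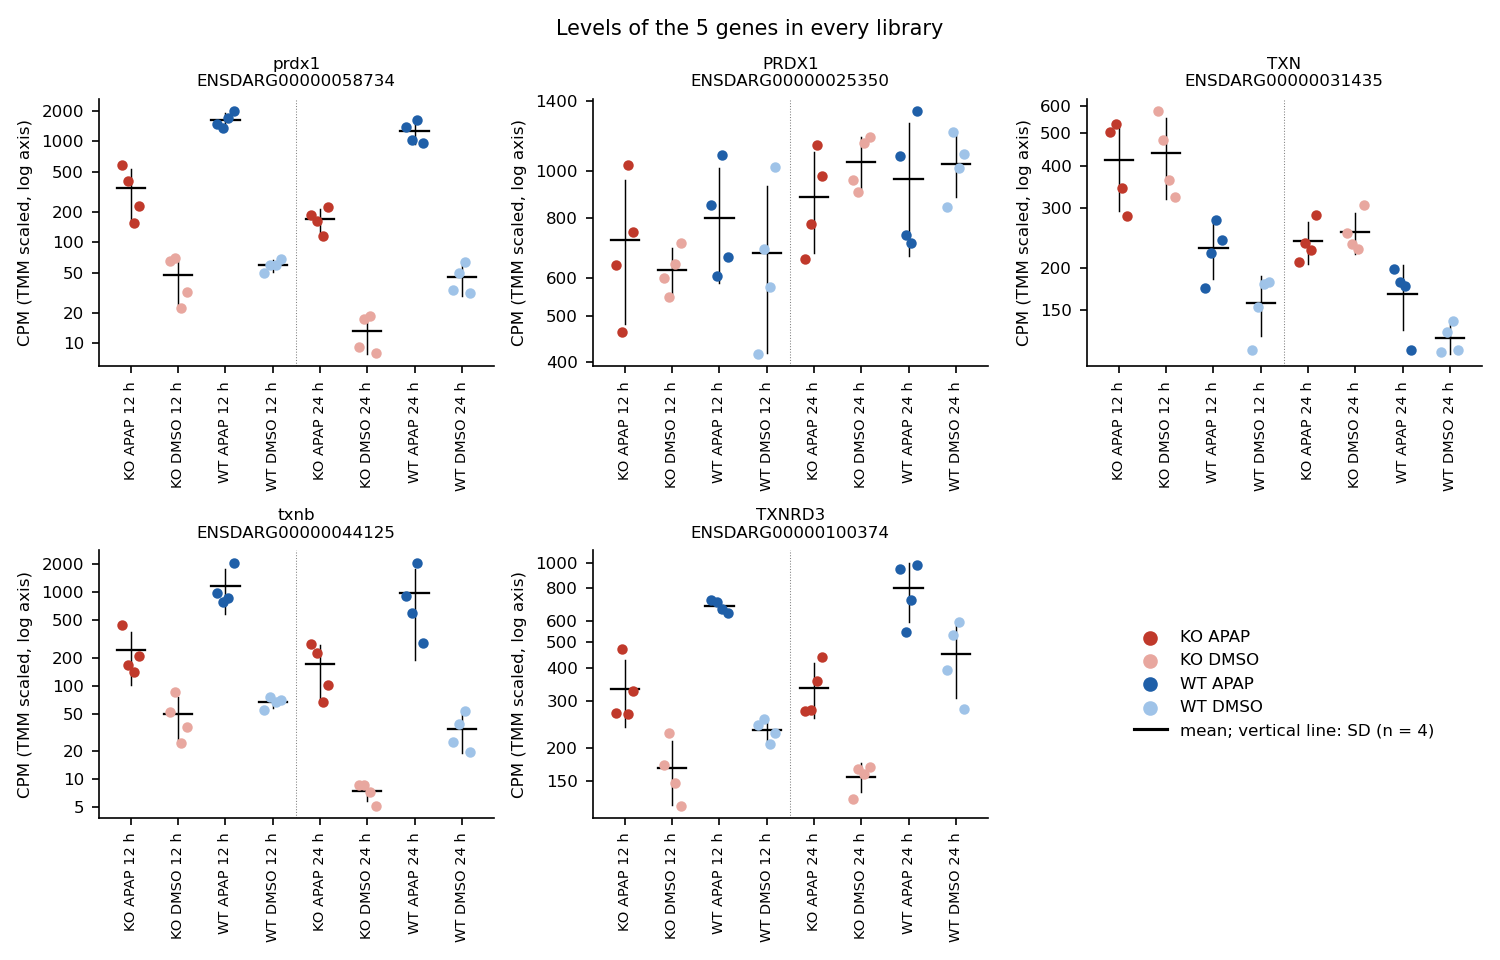
Level of each gene in CPM (log axis) in every library, with 1 panel per gene, the 12 h groups left of the dotted line and the 24 h groups right of it. Horizontal lines are group means and vertical lines the SD (n = 4). In prdx1 and txnb every APAP library lay above every DMSO library of its genotype and time, whereas PRDX1 stayed between 416 and 1336 CPM in all 32 libraries.

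Of the peroxiredoxin pair, prdx1 was higher under APAP in all 4 settings and PRDX1 was called in none. The prdx1 product is by its name a peroxiredoxin of the cytosolic kind. In KO livers at 12 h it had 588, 402, 157 and 231 CPM under APAP, against 65.4, 70.5, 22.3 and 32.3 CPM under DMSO. The lowest APAP library was above the highest DMSO library, and in both treatments replicates 1 and 2 were higher than replicates 3 and 4. In KO livers at 24 h prdx1 had 188, 161, 116 and 221 CPM under APAP, against 9.11, 17.2, 18.5 and 7.93 CPM under DMSO. In WT livers at 12 h it had 1498, 1354, 1699.7 and 2005 CPM under APAP, against 48.999, 59.4, 58.8 and 68.8 CPM under DMSO. In WT livers at 24 h it had 1392, 1030, 1649 and 964 CPM under APAP, against 33.5, 50, 63.8 and 31.6 CPM under DMSO. In no setting did the treatments overlap.

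The log2 fold change of prdx1, APAP over DMSO, was 2.85 ± 0.38 in KO livers at 12 h (adjusted p = 1.84e-06), which is 7.22-fold with a 95% interval of 4.27 to 12.2. It was 3.70 ± 0.40 in KO livers at 24 h (adjusted p = 2.01e-08), or 13-fold with an interval of 7.47 to 22.6. In WT livers it was 4.796 ± 0.41 at 12 h (adjusted p = 7.99e-11) and 4.81 ± 0.41 at 24 h (adjusted p = 7.6e-11), or 27.8-fold and 28.1-fold. By p-value prdx1 ranked 16 and 6 of 11384 genes in KO livers at 12 h and 24 h, and 2 in WT livers at both times. Without the 3 libraries that detected the fewest genes, the log2 fold change in KO livers at 12 h was 2.51 (adjusted p = 6.76e-05).

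The level of PRDX1 was of another kind. It had 639, 462, 1030.3 and 748 CPM in KO APAP and 599.8, 548, 641 and 711 CPM in KO DMSO at 12 h. At 24 h it had 658, 776, 1135 and 977 CPM in KO APAP and 959.9, 906, 1145 and 1178 CPM in KO DMSO. The KO treatments overlapped at both times. In WT livers it had 853, 605, 1083 and 664 CPM under APAP and 416, 690.0, 574 and 1022 CPM under DMSO at 12 h. At 24 h WT livers had 1075, 739, 711 and 1336 CPM under APAP and 845, 1208, 1015 and 1088 CPM under DMSO, again with overlap. The log2 fold changes, APAP over DMSO, were 0.20, with a 95% interval of -0.35 to 0.76, in KO livers at 12 h and -0.24, with an interval of -0.80 to 0.32, in KO livers at 24 h. They were 0.25, with an interval of -0.31 to 0.80, in WT livers at 12 h and -0.11, with an interval of -0.66 to 0.45, in WT livers at 24 h. These intervals leave room for changes of less than 1 log2 unit in either direction. The 8 group means of PRDX1 spanned 1.68-fold, against 124-fold for prdx1.

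Within a library the counts of the pair can be set against each other without any scaling between libraries. The ratio of prdx1 to PRDX1 counts was 0.152 to 0.920 in KO APAP and 0.0347 to 0.129 in KO DMSO libraries at 12 h, and 0.102 to 0.285 in KO APAP and 0.00673 to 0.0190 in KO DMSO libraries at 24 h. In WT livers it was 1.57 to 3.02 under APAP and 0.0674 to 0.118 under DMSO at 12 h, and 0.721 to 2.32 under APAP and 0.0290 to 0.0629 under DMSO at 24 h. The count of prdx1 passed that of PRDX1 in 7 of the 8 WT APAP libraries and in none of the other 24. Transcript lengths were not used here, so a ratio over 1 does not say which gene had more transcripts. The log2 ratio, APAP minus DMSO, changed by 2.68 and 4.01 in KO livers at 12 h and 24 h and by 4.505 and 4.98 in WT livers. Each of the 4 changes had p = 0.0286 in a two-sided exact permutation test and 0.0286 after adjustment over the 4, which is the smallest p that 4 against 4 libraries allow. Without the 3 libraries with the fewest genes the KO change at 12 h was 2.03, in a comparison of 3 against 3 that cannot give an exact p below 0.1.

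**Figure D2:**
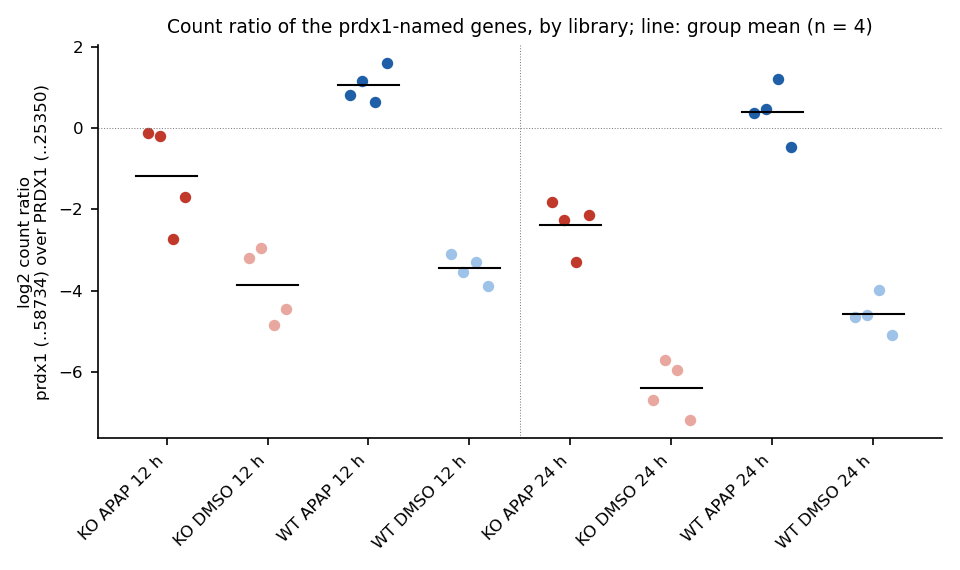
Log2 ratio of prdx1 to PRDX1 read counts in each library (vertical axis, 0.5 added to both counts), with a line at each group mean (n = 4) and the dotted horizontal line at equal counts. Groups without overlap between APAP and DMSO are seen in both genotypes and at both times, and only WT APAP libraries lie above equal counts.

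The thioredoxin pair divided in a like manner, with txnb higher under APAP in all 4 settings and TXN called in none. Thioredoxins reduce disulfides in other proteins and feed electrons to peroxiredoxins. The level of txnb in KO livers at 12 h was 443, 166, 141 and 206 CPM under APAP, against 52.5, 84.6, 24.6 and 36.5 CPM under DMSO. In KO livers at 24 h it was 280.2, 226, 66.3 and 103 CPM under APAP, against 8.68, 8.59, 7.34 and 5.20 CPM under DMSO, its lowest levels in any group. In WT livers at 12 h it was 971, 788, 877 and 2061 CPM under APAP, against 54.4, 74.8, 67.4 and 70.4 CPM under DMSO. Replicate 4 of that WT APAP group stood far above the other 3. In WT livers at 24 h txnb had 918, 607, 2082 and 285 CPM under APAP, against 25.02, 39.1, 53.96 and 19.4 CPM under DMSO. No APAP group overlapped its DMSO group, although WT APAP libraries at 24 h differed among themselves with an SD of 783 CPM around a mean of 973 CPM.

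The log2 fold change of txnb, APAP over DMSO, was 2.27 ± 0.47 in KO livers at 12 h (adjusted p = 0.00197), or 4.82-fold with a 95% interval of 2.48 to 9.36, and 4.49 ± 0.53 in KO livers at 24 h (adjusted p = 1.47e-07), or 22.5-fold. In WT livers it was 4.14 ± 0.51 at 12 h (adjusted p = 7.92e-07), or 17.6-fold, and 4.82 ± 0.53 at 24 h (adjusted p = 3.84e-08), or 28.3-fold. The KO call at 12 h was lost in a fit of only the compared groups (2.00, adjusted p = 0.0612). Leaving out single libraries moved the WT value at 24 h within 4.12, without WT APAP replicate 3, and 5.14.

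TXN, the other thioredoxin gene, had log2 fold changes, APAP over DMSO, of -0.07 (95% interval -0.61 to 0.47) in KO livers at 12 h and -0.09 (interval -0.63 to 0.45) at 24 h. In WT livers they were 0.54 (interval -0.00 to 1.08, adjusted p = 0.483) at 12 h and 0.43 (interval -0.11 to 0.97, adjusted p = 0.602) at 24 h. The treatments overlapped in all 4 settings.

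TXNRD3 is the thioredoxin reductase of the set, and in mammals the gene of this name encodes a reductase that acts on both thioredoxin and glutathione. In KO livers at 12 h it had 272, 472, 268 and 328 CPM under APAP, against 173, 228, 147 and 121 CPM under DMSO. In KO livers at 24 h it had 275, 277, 359 and 440.1 CPM under APAP, against 128, 167, 159 and 169 CPM under DMSO. The KO treatments did not overlap at either time. In WT livers at 12 h it had 725, 708, 669 and 644 CPM under APAP, against 243, 257, 207 and 227 CPM under DMSO. In WT livers at 24 h it had 943, 549, 723 and 982 CPM under APAP, against 394, 536, 599 and 279 CPM under DMSO, where the treatments overlapped. The log2 fold change was 1.00 ± 0.27 in KO livers at 12 h (adjusted p = 0.0214) and 1.12 ± 0.27 at 24 h (adjusted p = 0.00797), each close to a doubling. It was 1.56 ± 0.27 in WT livers at 12 h (adjusted p = 0.000359), or 2.94-fold, and 0.82 ± 0.27 at 24 h, which was not called (adjusted p = 0.0949). The KO call at 12 h was lost in 8 of 14 alternatives, with adjusted p up to 0.53, among them leaving out KO APAP replicate 2 (0.77, adjusted p = 0.0927), KO DMSO replicate 1, 3 or 4 and all 3 libraries with few genes (0.71, adjusted p = 0.165). The WT value at 24 h was called in 2 alternatives, among them DESeq2 (0.81, adjusted p = 0.0319).

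**Figure D3:**
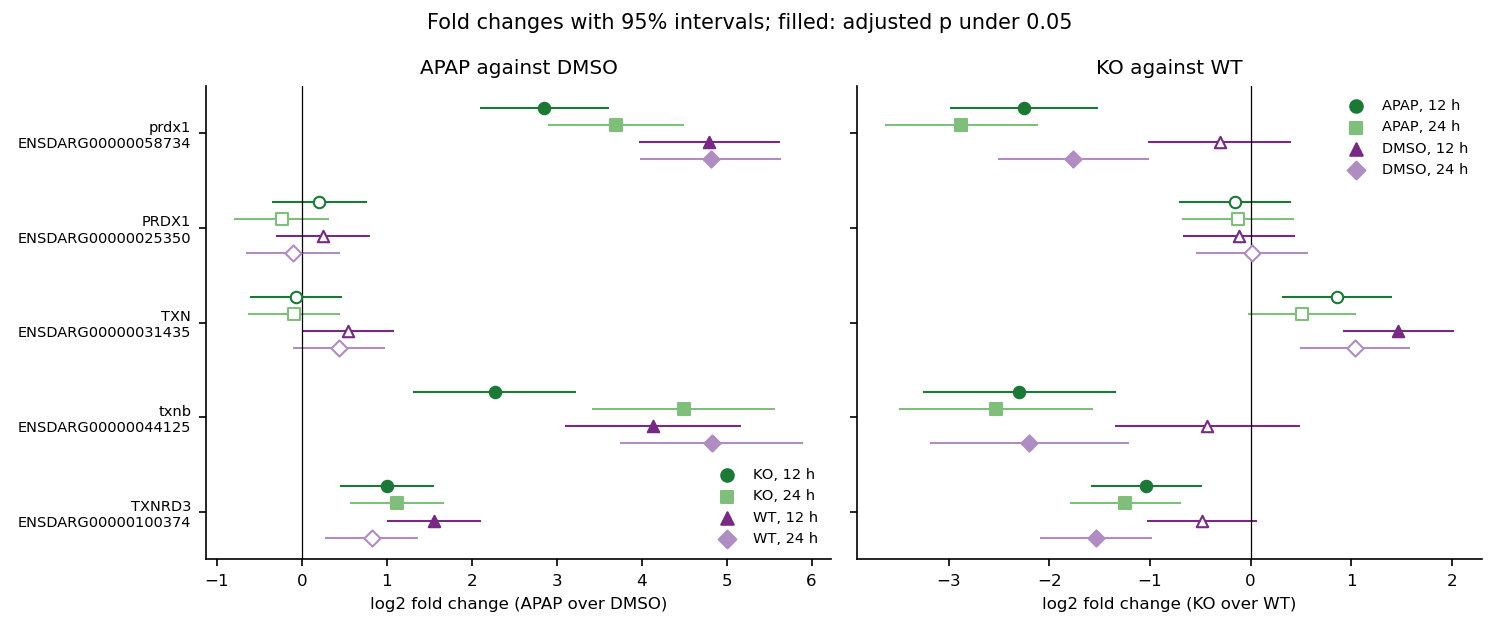
Log2 fold changes of the 5 genes for APAP over DMSO (left) and KO over WT (right), with 95% intervals from the fit to all 32 libraries (n = 4 per group). Filled symbols passed an adjusted p under 0.05. On the left prdx1 and txnb lie between 2.27 and 4.82 in every setting, and on the right TXN is the only gene of the 5 with a called value above 0.

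Counted together, 3 of the 5 genes rose under APAP in KO livers at 12 h (prdx1, txnb and TXNRD3). There 5.22% of all tested genes were called in either direction and 3.09% called higher. In KO livers at 24 h 3 rose, where 5.05% were called and 2.05% called higher. In WT livers the same 3 rose at 12 h, against 1.8% of all genes called and 1.35% called higher. At 24 h in WT livers prdx1 and txnb rose, against 3.2% called and 1.64% called higher. The 5 genes were chosen with earlier results of these data known, so these counts are no separate support. None of the 5 fell. The median log2 fold change of the 5 was 1.00 and 1.12 in KO livers at 12 h and 24 h, and 1.56 and 0.82 in WT livers, whereas the median over all tested genes was -0.30 and -0.00 in KO livers and -0.07 and 0.02 in WT livers. In RNA of whole livers, fewer cells of a type and less RNA per cell cannot be told apart. The shares of some marker lists differed between the treatments. The 4 matched biliary genes (krt8, krt18a.1, epcam and ANXA4, of 5 listed) took 0.0887% to 0.148% of KO APAP and 0.0536% to 0.0778% of KO DMSO counts at 12 h, and 0.0915% to 0.196% of KO APAP and 0.0577% to 0.0849% of KO DMSO counts at 24 h. In WT livers they took 0.128% to 0.229% under APAP and 0.0816% to 0.0910% under DMSO at 12 h, but overlapped at 24 h, at 0.113% to 0.165% and 0.1248% to 0.152%. The 6 red blood cell genes matched were lower under APAP at 24 h, at 0.0280% to 0.0630% of KO APAP and 0.105% to 0.238% of KO DMSO counts, and 0.0346% to 0.0672% of WT APAP and 0.130% to 0.289% of WT DMSO counts. Intestinal markers (6 genes) were lower under APAP in KO livers, at 0.0281% to 0.0655% of KO APAP and 0.0862% to 0.834% of KO DMSO counts at 12 h, and 0.0161% to 0.0433% and 0.0625% to 0.143% in the same groups at 24 h. Exocrine pancreas markers (10 genes) took 1.94% to 2.73% of KO APAP and 4.00% to 6.58% of KO DMSO counts at 24 h. Hepatocyte markers were lower under APAP in KO livers at 24 h, at 7.03% to 8.87% of KO APAP and 9.52% to 11.7% of KO DMSO counts. Most reads of the biliary list came from krt8 (118621 in all libraries) and krt18a.1 (39746), against 27719 from ANXA4 and 7573 from epcam. Of the intestinal genes FABP2 had 140300 reads, and no other had more than 10315. Of the hepatocyte genes apoa2 had 8319624 reads and fabp10a 3363079, and no other had more than 1011244. In KO livers at 24 h the log2 fold change of fabp10a, APAP over DMSO, was -0.22 and not called. Shares of these lists therefore mainly follow those genes. The part of these markers in the results was not tested.

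KO against WT livers asks how far these levels differed between the genotypes. The labels do not say how KO and WT fish were related, so the genotype cannot be told apart from line or clutch. Under APAP, prdx1, txnb and TXNRD3 were lower in KO livers at both times, and at 24 h the same 3 genes were lower in KO livers under DMSO. At 12 h under DMSO these 3 were not called and TXN alone was, with a higher level in KO livers. PRDX1 was called nowhere.

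For prdx1 under APAP, the 4 KO libraries lay at 157 to 588 CPM and the 4 WT libraries at 1354 to 2005 CPM at 12 h, with a log2 fold change, KO over WT, of -2.25 ± 0.37 (adjusted p = 0.000241). At 24 h they lay at 116 to 221 CPM in KO and 964 to 1649 CPM in WT livers, with -2.87 ± 0.38 (adjusted p = 3.4e-06). KO livers thus held 0.210 and 0.136 times the WT level of the transcript under APAP. Under DMSO the genotypes overlapped at 12 h, at 22.3 to 70.5 CPM in KO and 48.999 to 68.8 CPM in WT livers (-0.31, 95% interval -1.02 to 0.40, adjusted p = 1). At 24 h under DMSO they did not overlap, at 7.93 to 18.5 CPM in KO and 31.6 to 63.8 CPM in WT livers (-1.76 ± 0.37, adjusted p = 0.014). That last call was lost when KO DMSO replicate 1 or 4 or WT DMSO replicate 2 or 3 was left out, with log2 fold changes between -1.70 and -1.56 and adjusted p up to 0.13.

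For txnb the log2 fold change, KO over WT, under APAP was -2.30 ± 0.47 at 12 h (adjusted p = 0.005) and -2.53 ± 0.48 at 24 h (adjusted p = 0.00143), with no overlap at either time. Without WT APAP replicate 3 the value at 24 h was -1.83 (adjusted p = 0.035). Under DMSO it was -0.43 at 12 h (95% interval -1.35 to 0.49, adjusted p = 1), with overlapping genotypes. At 24 h under DMSO it was -2.20 ± 0.49 (adjusted p = 0.0265), at 5.20 to 8.68 CPM in KO and 19.4 to 53.96 CPM in WT livers. That call was lost without any 1 of KO DMSO replicates 1 to 4 or WT DMSO replicates 2 and 3 (-2.27 to -1.91, adjusted p up to 0.171).

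For TXNRD3 the log2 fold change, KO over WT, under APAP was -1.04 ± 0.27 at 12 h (adjusted p = 0.0319) and -1.24 ± 0.27 at 24 h (adjusted p = 0.00857). Under DMSO it was -0.48 ± 0.27 at 12 h (adjusted p = 0.869) and -1.54 ± 0.28 at 24 h (adjusted p = 0.00327). The DMSO libraries at 24 h held 128 to 169 CPM in KO and 279 to 599 CPM in WT livers, and that call passed in all 14 alternatives. The APAP call at 12 h was lost in 8 of 14 alternatives, with adjusted p up to 0.0874, among them leaving out KO APAP replicate 1, 3 or 4 or WT APAP replicate 1, 2 or 3. The APAP call at 24 h was lost without KO APAP replicate 1 or 2 or WT APAP replicate 4 (adjusted p up to 0.0614).

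TXN was the gene of the 5 whose KO values lay above WT. At 12 h under APAP it had 503, 531, 343 and 285 CPM in KO livers, against 175, 221, 277 and 243 CPM in WT livers. At 12 h under DMSO it had 581, 478, 363 and 324 CPM in KO livers, against 115, 154, 179.7 and 182 CPM in WT livers. KO and WT libraries did not overlap in either treatment, and within the KO groups replicates 1 and 2 were higher than replicates 3 and 4. At 24 h under APAP it had 208, 237, 226 and 287 CPM in KO livers, against 199, 182, 177 and 114 CPM in WT livers. At 24 h under DMSO it had 254, 235, 227 and 306 CPM in KO livers, against 113, 129.8, 139.5 and 114 CPM in WT livers. The genotypes did not overlap at 24 h either, but under APAP the nearest libraries had 208 CPM in KO and 199 CPM in WT livers. How many of all tested genes were apart in this way was not counted, and only the difference under DMSO at 12 h was called. The log2 fold change, KO over WT, was 0.86 ± 0.27 under APAP at 12 h (adjusted p = 0.0777) and 0.51 ± 0.27 under APAP at 24 h (adjusted p = 0.539). It was 1.47 ± 0.27 under DMSO at 12 h (adjusted p = 0.00442), or 2.77-fold, and 1.04 ± 0.27 under DMSO at 24 h (adjusted p = 0.101). The call under DMSO at 12 h was lost in a fit of only the compared groups (1.46, adjusted p = 0.099). The value under DMSO at 24 h was called in 3 alternatives, among them DESeq2 (0.95, adjusted p = 0.0163), and the value under APAP at 12 h in DESeq2 alone (0.71, adjusted p = 0.0489).

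PRDX1 had log2 fold changes, KO over WT, of -0.15 and -0.12 under APAP at 12 h and 24 h and -0.11 and 0.01 under DMSO. Their 95% intervals reached from -0.71 to 0.57 at most. Of the 5 genes, 3 were thus lower in KO livers under APAP at 12 h, where 2.23% of all tested genes were called in either direction, and 3 at 24 h, where 1.19% were. Under DMSO 1 was called, higher in KO livers, at 12 h, against 0.246% of all genes, and 3 were lower at 24 h, against 0.281%. The shares of some marker lists differed between the genotypes too. Under APAP at 24 h the macrophage list, with counts for 10 of 13 matched genes, took 0.00464% to 0.0181% of KO and 0.00177% to 0.00210% of WT counts, and no list was free of overlap under APAP at 12 h. The highest KO value was that of replicate 1, and replicates 2 to 4 lay at 0.00464% to 0.00582%. Of the macrophage genes, 2 named MFAP4 had 3041 and 3022 reads in all libraries together, and the next, marco, had 416. Under DMSO the 3 neutrophil genes took 0% to 0.000572% of KO and 0.000601% to 0.00265% of WT counts at 12 h, and 0.000170% to 0.000442% of KO and 0.000582% to 0.00132% of WT counts at 24 h. These genes were near the floor, with 194 (npsn), 216 (MMP9) and 685 (lyz) reads in all 32 libraries together. Biliary markers moved with genotype under DMSO, at 0.0536% to 0.0778% of KO and 0.0816% to 0.0910% of WT counts at 12 h, and 0.0577% to 0.0849% of KO and 0.1248% to 0.152% of WT counts at 24 h. The part of these markers in the KO against WT values was not tested.

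Whether the APAP response itself differed between the genotypes was tested as a difference of differences, and none of the 5 genes was called at either time. Across all genes 0.0703% were called at 12 h and 0.105% at 24 h. For prdx1 the KO minus WT difference in the log2 response was -1.94 at 12 h (95% interval -2.96 to -0.93, unadjusted p = 0.000376, adjusted p = 0.178) and -1.11 at 24 h (interval -2.14 to -0.09, adjusted p = 1). For txnb it was -1.87 at 12 h (interval -3.17 to -0.56, adjusted p = 0.432) and -0.33 at 24 h (interval -1.67 to 1.01, adjusted p = 1). At an unadjusted p under 0.05 in edgeR, 2 of the 5 passed at 12 h, beside 816 of all 11384 tested genes. At 24 h 1 of the 5 passed, beside 471 of 11384. DESeq2 called 1 of the 5 at 12 h and 0 at 24 h, but the shares of all genes above are edgeR's and do not apply to it. The prdx1 value at 12 h passed in 2 of 22 alternatives (without a filter on low counts, adjusted p = 0.0175, and DESeq2, adjusted p = 0.0315) and that of txnb in 1. The differences of TXNRD3 were -0.55 (interval -1.32 to 0.22) at 12 h and 0.29 (interval -0.47 to 1.06) at 24 h, those of TXN -0.61 and -0.53, and those of PRDX1 -0.04 and -0.13.

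Between 24 h and 12 h, genes of the 5 were called only in KO livers under DMSO. There prdx1 had 7.93 to 18.5 CPM at 24 h and 22.3 to 70.5 CPM at 12 h, with a log2 fold change, 24 h over 12 h, of -1.85 ± 0.37 (adjusted p = 0.00346). In the same livers txnb had 5.20 to 8.68 CPM at 24 h and 24.6 to 84.6 CPM at 12 h, with -2.73 ± 0.50 (adjusted p = 0.00165). Neither gene overlapped between the times, and these 2 of 5 calls stand beside 2.52% of all genes called. TXN in KO DMSO livers had -0.77 ± 0.27 (adjusted p = 0.132), which passed in 4 of 14 alternatives, DESeq2 among them (-0.98, adjusted p = 0.0036).

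In the other 3 groups none of the 5 genes was called for time. In KO APAP livers, where 0.439% of all genes were called, prdx1 had -1.005 (95% interval -1.72 to -0.29, adjusted p = 0.198) and TXN -0.79 (interval -1.34 to -0.25, adjusted p = 0.179). In edgeR 2 of the 5 had an unadjusted p under 0.05 there, beside 1342 of 11384 tested genes. DESeq2 called 1 of the 5 there, TXN. In WT DMSO livers, with 2.05% of all genes called, TXNRD3 had 394, 536, 599 and 279 CPM at 24 h, against 243, 257, 207 and 227 CPM at 12 h, without overlap (0.95 ± 0.27, adjusted p = 0.0522). At an unadjusted p under 0.05 in edgeR, 3 of the 5 passed in WT DMSO livers, beside 1258 of 11384 tested genes. Those of the 5 were TXNRD3, PRDX1 and txnb. PRDX1 had 0.62 (95% interval 0.06 to 1.18, adjusted p = 0.351), with overlap. The value of txnb was -0.96 (interval -1.89 to -0.03, adjusted p = 0.427), without overlap. DESeq2 called 1 of the 5 in WT DMSO livers, TXNRD3. In WT APAP livers, with 0.0527% of all genes called, log2 fold changes ran from -0.45 in TXN to 0.27 in PRDX1. Of the 5, 0 had an unadjusted p under 0.05 in edgeR, beside 518 of 11384 tested genes, and DESeq2 called 0. The shares of all genes called for time are edgeR's, and those of DESeq2 are not given here.

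The lower levels of prdx1, txnb and TXNRD3 in KO DMSO livers at 24 h led to a test, added after the levels were seen, of the KO minus WT difference in the change between 24 h and 12 h under DMSO. It called 0% of all tested genes and none of the 5. The difference was -1.45 in prdx1 (95% interval -2.48 to -0.43), -1.77 in txnb (interval -3.10 to -0.43) and -1.05 in TXNRD3 (interval -1.83 to -0.28), with adjusted p = 1 in each. Unadjusted p-values under 0.05 numbered 3 of 5 in edgeR, beside 374 of 11384 tested genes, and DESeq2 called 0 of the 5. Those 3 are the genes whose levels led to the test, so this count and these intervals are no separate support.

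Across all 8 groups, group means of prdx1 ran in falling order from WT APAP at 12 h (1639 CPM) over WT APAP at 24 h (1259 CPM), KO APAP at 12 h (344 CPM), KO APAP at 24 h (172 CPM), WT DMSO at 12 h (59.0 CPM), KO DMSO at 12 h (47.6 CPM) and WT DMSO at 24 h (44.7 CPM) to KO DMSO at 24 h (13.2 CPM). Neighbours in this order overlapped except at 3 steps, namely between WT APAP at 24 h and KO APAP at 12 h, between KO APAP at 24 h and WT DMSO at 12 h, and between WT DMSO at 24 h and KO DMSO at 24 h. For txnb the order of the 8 means was the same, at 1174, 973, 239, 169, 66.8, 49.5, 34.4 and 7.45 CPM, and only the last step was free of overlap. TXNRD3 was highest in WT APAP at 24 h (799 CPM) and 12 h (686 CPM), then WT DMSO at 24 h (452 CPM), KO APAP at 24 h (338 CPM) and 12 h (335 CPM), WT DMSO at 12 h (233 CPM), and KO DMSO at 12 h (167 CPM) and 24 h (156 CPM). Its WT DMSO mean at 24 h was therefore above both KO APAP means, although WT DMSO and KO APAP at 24 h overlapped. TXN was highest in KO DMSO (436 CPM) and KO APAP (415 CPM) at 12 h, then KO DMSO (256 CPM) and KO APAP (239 CPM) at 24 h, and lowest in WT DMSO at 24 h (124 CPM), with overlap at every neighbouring step. PRDX1 ran from 1047 CPM in KO DMSO at 24 h to 625 CPM in KO DMSO at 12 h. Each neighbouring step overlapped, but the highest and the lowest of these groups did not overlap each other. The means spanned 158-fold in txnb, 124-fold in prdx1, 5.13-fold in TXNRD3, 3.51-fold in TXN and 1.68-fold in PRDX1.

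**Figure D4:**
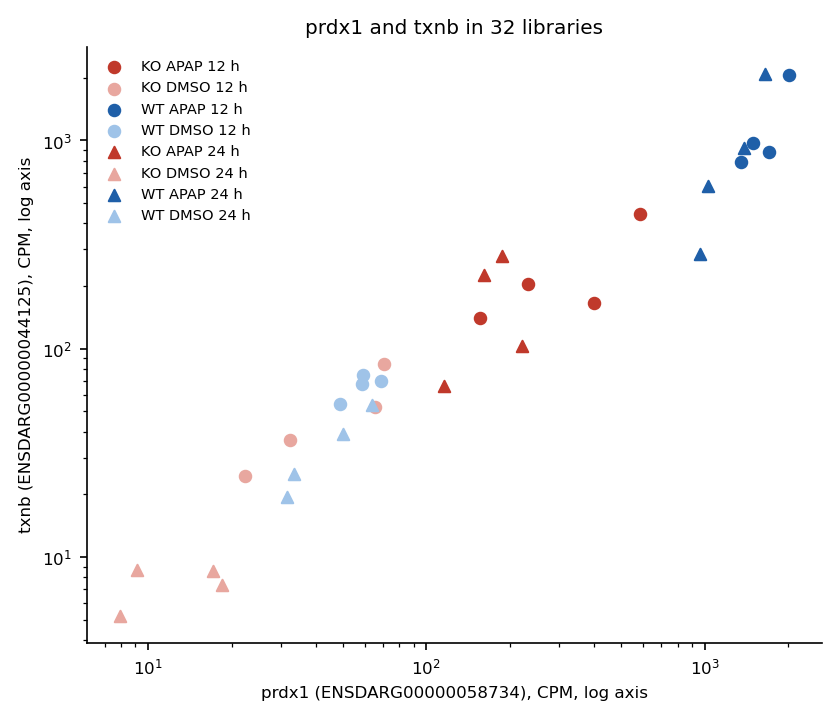
Level of txnb (vertical, CPM, log axis) against prdx1 (horizontal, CPM, log axis) in the 32 libraries, circles at 12 h and triangles at 24 h. The libraries form a single rising band from KO DMSO at 24 h to WT APAP, with r = 0.971 between the log2 levels.

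The levels of prdx1 and txnb moved together from library to library. Pearson's r of log2(CPM + 2) was 0.971 over the 32 libraries and 0.687 for the deviations from group means. The first value includes the group differences by which both genes were already described. Both values use levels scaled by the same library totals. Between prdx1 and TXNRD3 r was 0.8293, and 0.404 within groups. PRDX1 and prdx1 had r = -0.104, and -0.267 within groups. TXN and txnb had r = 0.0141, but 0.366 within groups. Between prdx1 and TXN r was 0.00666 over the 32 libraries and 0.572 within groups. Between txnb and TXNRD3 it was 0.756, and -0.00922 within groups.

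By the same measure, among 4185 genes of at least moderate level, the 3 genes most like each of the 5 over the 32 libraries were as follows. For prdx1 they were txnb, GSR (r = 0.961), the glutathione reductase gene, and PGD (r = 0.929), an NADPH-producing enzyme of the pentose phosphate pathway. For txnb they were prdx1, gstp1.2 (r = 0.929), a glutathione S-transferase, and GSR (r = 0.916). TXNRD3 was most like GOT1 (r = 0.871), an aspartate aminotransferase, abcc2 (r = 0.870), a canalicular export pump, and TKTL2 (r = 0.860), a transketolase-like gene. PRDX1 was most like fabp10a (r = 0.851), the hepatocyte fatty acid binding protein, and the translation elongation factor genes EEF1G (r = 0.849) and eef1da (r = 0.846). TXN was most like ATP5PF (r = 0.907), cox7b (r = 0.905) and UQCC6 (r = 0.903), which encode a subunit of ATP synthase, a subunit of cytochrome c oxidase and an assembly factor of complex III.

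Those neighbours were picked by an r that includes the group differences. Group differences that they share with the gene they resemble are therefore no separate result. Their KO over WT values were as follows. Under APAP at 12 h and 24 h, gstp1.2 (-1.59 and -2.57), abcc2 (-1.51 and -1.59) and TKTL2 (-1.26 and -1.41) were called lower in KO livers. GOT1 was called lower in KO livers at 24 h, under DMSO (-2.01) and APAP (-1.63). PGD, fabp10a, EEF1G and eef1da were not called between genotypes. The KO minus WT difference in the APAP response of gstp1.2 was called at 24 h (-2.31 ± 0.49, adjusted p = 0.03). cox7b had log2 fold changes of 1.07 ± 0.24 under DMSO at 12 h (adjusted p = 0.0341) and 0.82 to 0.90 in the other settings, not called. UQCC6 was called under DMSO at 12 h (1.81 ± 0.38, adjusted p = 0.0164) and ATP5PF under APAP at 24 h (1.09 ± 0.29, adjusted p = 0.0432). None of these 3 nor TXN was called for APAP over DMSO in either genotype. For fabp10a, log2 fold changes, APAP over DMSO, were between -0.22 and 0.61 and none was called.

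The rest of the pathway was read from 6 lists of 72 symbols, of which 57 matched 60 genes. Of these 50 were tested, and 45 remained after the 5 genes described above. The gene that repairs overoxidised peroxiredoxin, SRXN1 (ENSDARG00000079160), had 6 reads in all libraries together and was not tested, and neither were both genes named TXNRD2. In KO livers 5 of the 45 rose and 1 fell under APAP at 12 h, beside 3.09% of all tested genes called higher and 2.13% lower. At 24 h 2 rose and 4 fell, beside 2.05% higher and 3.0% lower. In WT livers 5 rose and 1 fell at 12 h, beside 1.35% and 0.448% of all genes, and 3 rose and 0 fell at 24 h, beside 1.64% and 1.55%. The counts in KO livers at 12 h ranged from 1 to 5 higher and from 1 to 3 lower over the alternatives.

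Of the other 4 peroxiredoxins tested, PRDX3, PRDX4, prdx5 and prdx6, only PRDX4 was called in an APAP or genotype comparison. Over those comparisons 0.246% to 5.22% of all tested genes were called, so this call is not read as a result about the list. PRDX4 is the peroxiredoxin of the endoplasmic reticulum, and it was lower under APAP in KO livers at 24 h, at 20.9 ± 2.66 CPM under APAP and 70.4 ± 17.6 CPM under DMSO (SD, n = 4, log2 fold change -1.75 ± 0.40, adjusted p = 0.00364). The mitochondrial PRDX3 had log2 fold changes, APAP over DMSO, of -0.01 and -0.55 in KO livers at 12 h and 24 h and -0.36 and -0.49 in WT livers, none called. For prdx5, KO over WT values were 1.18 and 1.19 under APAP at 12 h and 24 h (adjusted p = 0.0885 and 0.149).

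Of the 14 other thioredoxin-related genes tested, 1 rose under APAP in KO livers at 12 h and 1 in WT livers at 12 h, which is 7.14% of the list in each, where 5.22% and 1.8% of all genes were called. The first was TMX1, a membrane-bound thioredoxin-like protein (3.25 ± 0.80, adjusted p = 0.00997). It had 5.68, 98.1, 3.71 and 10.4 CPM in KO APAP, against 0.905, 5.49, 3.03 and 2.87 CPM in KO DMSO livers. The call rested on KO APAP replicate 2, the library with the fewest detected genes, and without it the log2 fold change was 1.07 (adjusted p = 0.445). The second was TXNIP (ENSDARG00000036107), which binds and inhibits thioredoxin, at 125 ± 35.4 CPM in WT APAP and 56.1 ± 16.9 CPM in WT DMSO livers (SD, n = 4, 1.16 ± 0.32, adjusted p = 0.0428), a call lost in 10 of 14 alternatives (0.96 to 1.31, adjusted p up to 0.309), leaving out any 1 of WT DMSO replicates 1 to 4 or WT APAP replicates 2 to 4 among them. TXNDC15 was higher in KO livers at 24 h, under APAP (2.23 ± 0.47, adjusted p = 0.00582) and under DMSO (2.29 ± 0.47, adjusted p = 0.014), where the call was lost without WT DMSO replicate 2, 3 or 4 (adjusted p up to 0.103). TXN2, the mitochondrial thioredoxin, had 189 ± 27.98 CPM in KO and 91.4 ± 6.31 CPM in WT livers under APAP at 24 h (SD, n = 4), with a log2 fold change of 1.05 ± 0.45 that was not called (adjusted p = 0.38).

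**Figure D5:**
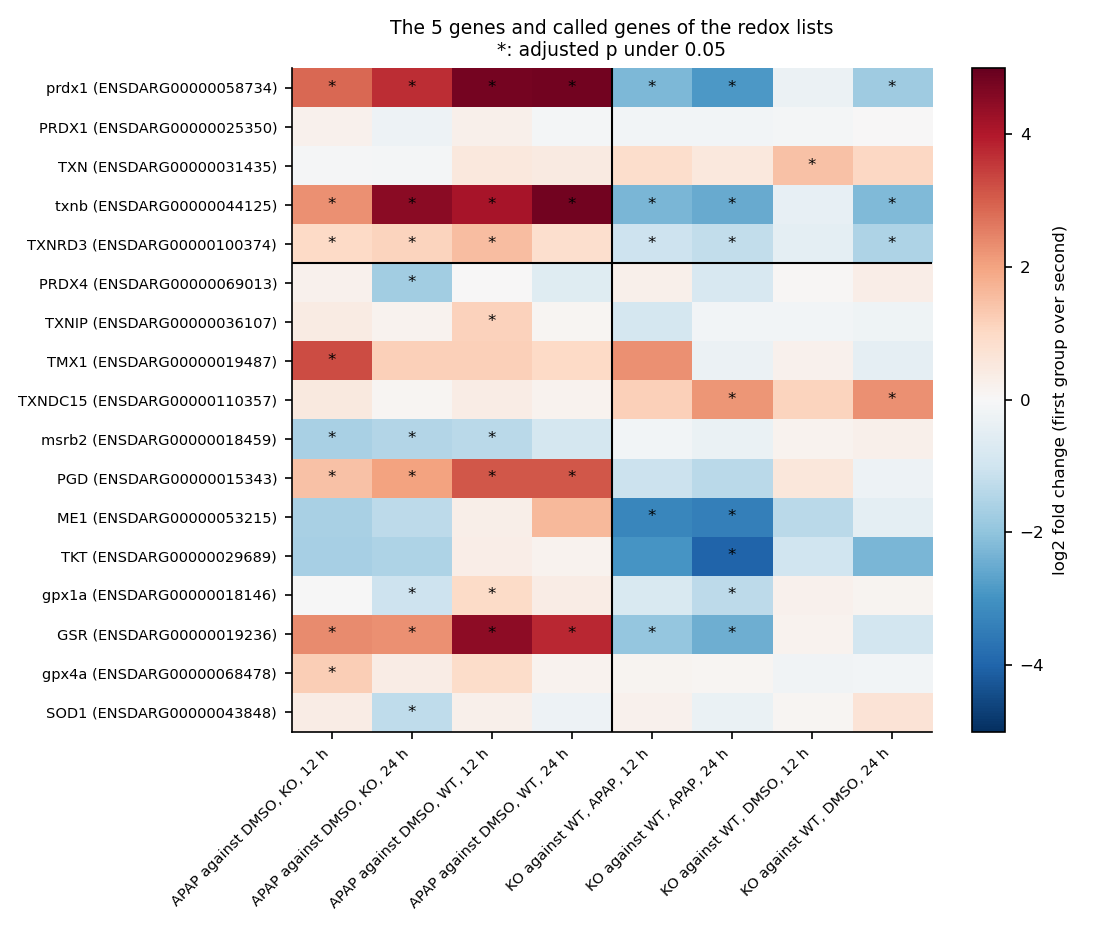
Log2 fold changes (colour scale, red for higher and blue for lower in the first group named) of the 5 genes, above the black line, and of genes from the 6 pathway lists that were called in at least 1 of the 8 comparisons shown in columns. Asterisks mark an adjusted p under 0.05. GSR and PGD carry asterisks in all 4 APAP columns, as prdx1 and txnb do.

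The NADPH that thioredoxin reductase consumes comes in large part from the pentose phosphate pathway, and of its genes PGD rose under APAP in all 4 settings. PGD had 142 ± 58.4 CPM in KO APAP and 51.8 ± 20.1 CPM in KO DMSO livers at 12 h, and 131 ± 36.6 CPM and 32.3 ± 3.22 CPM in the same groups at 24 h (SD, n = 4). In WT livers it had 299 ± 108 CPM under APAP and 34.7 ± 22.1 CPM under DMSO at 12 h, and 333 ± 59.19 CPM and 38.2 ± 8.38 CPM at 24 h. Its log2 fold changes were 1.45 and 2.02 in KO livers and 3.11 and 3.12 in WT livers, all called. The KO call at 12 h was lost without KO APAP replicate 1 or KO DMSO replicate 3 or 4 (adjusted p up to 0.0775) and in a fit of only the compared groups (1.19, adjusted p = 0.372).

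GSR (ENSDARG00000019236), which keeps glutathione reduced with the same cofactor, had log2 fold changes, APAP over DMSO, of 2.37 ± 0.38 and 2.27 ± 0.39 in KO livers at 12 h and 24 h and of 4.48 ± 0.42 and 3.79 ± 0.40 in WT livers. In KO livers at 12 h its call was lost only in a fit of the compared groups (2.10, adjusted p = 0.077). Of the 5 repair genes 1 was called, the methionine sulfoxide reductase gene msrb2, which fell under APAP in KO livers at 12 h (-1.63 ± 0.34, adjusted p = 0.00201) and 24 h (-1.45 ± 0.34, adjusted p = 0.00572) and in WT livers at 12 h (-1.34 ± 0.34, adjusted p = 0.0236). In those comparisons 5.22%, 5.05% and 1.8% of all tested genes were called. The WT call of msrb2 was lost without WT APAP replicate 1, 2 or 4 or WT DMSO replicate 2 or 4 (adjusted p up to 0.117) and without a filter on low counts (adjusted p = 0.151). Its KO call at 24 h was also lost without that filter (adjusted p = 0.0552). The glutathione peroxidase gene gpx1a was lower under APAP in KO livers at 24 h (-1.04 ± 0.26, adjusted p = 0.00963) and higher in WT livers at 12 h (0.94 ± 0.26, adjusted p = 0.0448). The KO call was lost without KO APAP replicate 1 or 2 (adjusted p up to 0.0773) and without a filter on low counts (adjusted p = 0.054). The WT call was lost in 9 of 14 alternatives (adjusted p up to 0.219), leaving out WT APAP replicate 1, 3 or 4 or WT DMSO replicate 1, 2 or 3 among them. SOD1, the cytosolic superoxide dismutase, was lower under APAP in KO livers at 24 h (-1.27 ± 0.28, adjusted p = 0.00307), and gpx4a was higher in KO livers at 12 h (1.25 ± 0.30, adjusted p = 0.00779). The gpx4a call was lost without the 3 libraries with the fewest genes (1.18, adjusted p = 0.0526).

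Between genotypes under APAP, 0 of the 45 were higher and 3 lower in KO livers at 12 h, beside 1.28% of all genes called higher and 0.949% lower. At 24 h 1 was higher and 5 lower, beside 0.571% and 0.624%. The lower ones included ME1 and GSR at both times, and TKT and gpx1a at 24 h. ME1, the malic enzyme that also yields NADPH, had log2 fold changes, KO over WT, of -3.27 ± 0.76 at 12 h (adjusted p = 0.0135) and -3.41 ± 0.76 at 24 h (adjusted p = 0.0104). The call at 12 h was lost in a fit of only the compared groups (-3.28, adjusted p = 0.154). The call at 24 h was lost without KO APAP replicate 1, 3 or 4 or WT APAP replicate 3 (-3.31 to -2.55, adjusted p up to 0.113), and that of TKT (-4.02, adjusted p = 0.0481) without any 1 of the 8 libraries compared. Under DMSO at 12 h edgeR called 0 of the 45, and DESeq2 called 0. There 4 of the 45 had an unadjusted p under 0.05 in edgeR, beside 746 of 11384 tested genes. At 24 h under DMSO 1 was called, TXNDC15.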

How the data were processed

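The authors deposited 1 table of raw read counts for 32 libraries, with Ensembl genes in rows. Per the submitters' processing notes, reads went through bcl2fastq, Trim Galore, HISAT2 and HTSeq on GRCz11. Versions, annotation release, strand setting and handling of reads shared by paralogs were not given in the sources used here, so counts of near-identical copies are uncertain. Symbols came from a separate name table that covers 29200 genes.

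Genes were filtered with filterByExpr, scaled with TMM and fitted with 1 mean per group in edgeR 4.0.16 (R 4.3.3), with 24 residual and 16.7 prior degrees of freedom. Quasi-likelihood F-tests are two-sided. An SE is the size of a log2 fold change divided by the root of its F. Alternatives were relative log expression scaling, no filter, DESeq2 1.42.0, only the compared groups, the replicate block, 3 libraries left out and each library left out. The fit was tested on simulated data. No 2 libraries of a group were copies. Same-numbered libraries deviated together, with r over 0.1, in 6 of 48 pairs. In 20 of 48 the same-numbered library was the best match among the 4 of its group. Whether numbers mark pairs was therefore not settled, and the main fit did not use them.

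The genes, lists and tests were chosen with earlier results of these data known. Beside the 5 genes, the text names the 3 genes most like each (tested, mean log2 CPM of at least 3, with a gene symbol) and, per list, direction and APAP comparison, up to 4 called genes with the smallest p. Others named, such as PRDX3, prdx5, TXN2, SRXN1 and those called between genotypes, were chosen after their values were seen. The counts over the lists include a gene that is not reported here.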

Additional observations from a re-analysis of the deposited data

Results flagged for a closer look

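The level of txnb (ENSDARG00000044125) in WT APAP 12 h replicate 4 was 2060.7 CPM, while the other 3 libraries of that group lay between 788 and 971 CPM. It was singled out because its gap to the nearest of the others, as a share of the group's range (0.856), was above Dixon's 95% critical value for 4 samples. Of 40 such tests, over 5 genes and 8 groups, this was the only one past the value, and chance gives about 1 in 20. The prdx1 level was also highest of its group in that library, at 2005 CPM against 1354 to 1699.7 CPM.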

How the results depend on the processing

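Of 1170 recomputed values of the 5 genes (75 values under their alternatives), 31 lost a call and 17 gained one. The sign changed in 41, none of them called in either fit, and the other 1081 kept sign and side of the threshold. Under relative log expression scaling, 1 of the 75 lost its call and 1 gained one, and the count of called genes among the 5 stayed within 1.5 times in 15 of 15 comparisons. Over all genes that scaling turned the balance of calls, in KO livers at 12 h, APAP over DMSO, to 244 higher and 345 lower, against 352 and 242 with TMM, and for KO over WT under APAP at 12 h to 95 and 126, against 146 and 108. It moved the median log2 fold change of all genes to -0.51, against -0.30, in the first and to -0.45, against -0.30, in the second. The count for the KO minus WT difference in the APAP response at 12 h was 2 with no filter and 1 with DESeq2. In fits of only the compared groups it was 1 for APAP over DMSO in KO livers at 12 h and 0 for KO over WT under DMSO at 12 h. For 24 h over 12 h it was 1 in WT DMSO livers with DESeq2 and with the 3 libraries with fewest genes left out, and 1 in KO APAP livers with DESeq2. Leaving out single libraries gave 1 to 3 for KO over WT under DMSO at 24 h and 0 to 1 for 24 h over 12 h in WT DMSO livers. For fits other than that with relative log expression scaling, the share of all genes called is not given here. A gained call there cannot be told from a fit that calls more genes.

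The change in the log2 ratio of prdx1 to PRDX1 in KO livers at 12 h was 2.03 without the 3 libraries (exact permutation p = 0.1, the smallest possible) and 2.33 to 3.19 without single libraries. With the replicate block, an exact sign test gave 2.68 and 4.01 in KO livers and 4.505 and 4.98 in WT livers at 12 h and 24 h, each at the smallest p that 4 pairs allow. The replicate block changed no call among the 75 values, and of the named list genes it lost that of TKT (adjusted p = 0.0556). Leaving out libraries leaves fewer samples, and otherwise the cause of these shifts was not tested. In KO DMSO livers at 24 h txnb had 19 to 43 reads. The SE of its log2 fold change, APAP over DMSO, at 24 h was 0.53 in KO and 0.53 in WT livers. The part of low counts in the precision of its fold changes was not tested.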
